A study of Mus musculus with 9 samples.

Results

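The genes described here are the histone genes of the mouse retina whose names follow the scheme of the replication-dependent histones. They were taken from the gene names of the deposited tables by 2 name patterns, the older scheme (*Hist1h* to *Hist4h*) and the current scheme (*H1f*, *H2ac*, *H2bc*, *H3c* and *H4c*), and names ending in -ps were left out. The tables mix both schemes. Of the 25239 gene names listed, 69 were members, 9 of them under an older name and 60 under a current name. The rule as given uses the current names only where no older name is found. It would have kept the 9 older names alone, with no H1 and no H3 gene, so both patterns were used and the 9 are also given on their own. The pattern for H1 takes in *H1f0*, *H1f7*, *H1f8* and *H1f10*, linker histone genes that never carried an older *Hist* name, while *H2aw*, *H2bu2* and *H4f16*, which did carry one, fall outside the patterns and are described as non-members. *Hist1h2al* is annotated as a transcribed pseudogene in RefSeq. By class, 10 members encode linker histone H1, 18 encode H2A, 17 encode H2B, 12 encode H3 and 12 encode H4. In the positions of the tables (mm10), 54 lie in the *Hist1* cluster on chromosome 13 and 10 in the *Hist2* cluster on chromosome 3, and 5 lie elsewhere.

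The core histones H2A, H2B, H3 and H4 form the nucleosome around which DNA is wound, and H1 binds the DNA between nucleosomes. Most of these genes are transcribed in S phase, when new DNA has to be packaged. Their mature mRNA ends in a conserved stem-loop in place of a poly(A) tail, and the stem-loop binding protein SLBP and a cleavage complex guided by the U7 snRNP make that end. Cells that have left the cell cycle also make transcripts from some histone genes that run past the stem-loop and carry a poly(A) tail. The neurons of the adult retina no longer divide.

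Whole retinas at postnatal day 42 on a C57BL/6J background were compared between 3 genotypes, with 3 libraries each and a pair of retinas per library. The +/+ retinas carried no knock-in allele, the Cre/+ retinas 1 *Rbpms*-CreERT2 allele and the Cre/Cre retinas 2. In the knock-in allele P2A-CreERT2 follows the last codon of *Rbpms* in the same reading frame, so that the inducible recombinase is made where *Rbpms* is active, which in the retina is the retinal ganglion cells. Tamoxifen, which activates CreERT2, is not given for the retinas of this RNA-Seq. Ganglion cells are a small part of the retina, and in whole retinas fewer cells of a type and less RNA per cell cannot be told apart. The methods speak of repeats and of a pair of retinas as 1 sample, and no source used here ties single libraries to mice or litters, so that p-values measure how these 3 samples differ.

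Libraries were made after selection of polyadenylated RNA, with a strand-specific kit. The deposited unit is TPM, which divides reads by gene length and scales each library to the same total (1000000), so levels can be set beside each other between genes. The aligned depth was 4.05 to 4.65 gigabases per library, the lowest in Cre/Cre replicate 1. *Rbpms* was at 38.4 to 43.4 TPM in the +/+ libraries, at 31.3 to 33.1 TPM with 1 knock-in allele and at 19.1 to 24.2 TPM with 2. In Cre/Cre against +/+ it passed an adjusted p of 0.05 in limma, at a log2 fold change of −0.96. That is short of the fold limit of 2 used in the paper, which reports no significant difference of *Rbpms* between genotypes. The 16 markers of retinal cell types were all above the filter and summed to 41616 to 50074 TPM. Cre/Cre replicate 1 stood apart from the other 8 libraries before any comparison was made. The ribosomal RNA precursor Rn45s made up 9.21% of all TPM in this library and 0.0827% to 0.336% in the others. The median ratio of genes to their geometric mean over the libraries was 0.918 in this library and 0.985 to 1.03 in the others. The fits of the genes named below that rest on the Cre/Cre libraries, and the counts over the members, are therefore also given without it.

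The stem-loop is shown because it marks where the mature, tail-less histone mRNA ends. All 69 members were matched to GENCODE M21 (GRCm38, the assembly of mm10). A stem-loop was searched on the sense strand of the annotated 3′ UTR as GGNNCTTNTNANNNCC, with the 6 bases on either side of the 4-base loop required to pair. It was found in 43 of the 69 members, and in 53 (0.253%) of the 20966 protein-coding gene names with a 3′ UTR of at least 16 bases. It began 21 to 58 bases after the stop codon. The lines below give 5 bases on either side in lower case and the stem-loop in capitals, written as DNA from 5′ to 3′.
H1f2 (chr13:23739507-23739532, plus strand): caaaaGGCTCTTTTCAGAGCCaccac
H2ac18 (chr3:96246027-96246052, plus strand): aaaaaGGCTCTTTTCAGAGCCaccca
H2bc8 (chr13:23571838-23571863, plus strand): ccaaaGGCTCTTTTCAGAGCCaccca
H2bc3 (chr13:23747198-23747223, plus strand): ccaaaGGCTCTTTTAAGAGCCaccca
H4c3 (chr13:23698084-23698109, minus strand): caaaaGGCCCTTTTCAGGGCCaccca
H4c9 (chr13:22040961-22040986, minus strand): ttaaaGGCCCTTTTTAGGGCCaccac
H4c11 (chr13:21735432-21735457, plus strand): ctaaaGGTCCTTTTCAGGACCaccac

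The stem of *H1f2*, *H2ac18* and *H2bc8*, with the loop TTTC, was the most common form. It was found in 24 members of the H1, H2A, H2B and H3 classes. The same stem with the loop TTTA, as in *H2bc3*, was found in 6 members. The H4 genes carried other stem-loops. That of *H4c3* was shared by 6 H4 genes (*H4c3*, *H4c4*, *H4c6*, *H4c8*, *Hist1h4m* and *Hist1h4n*). *H4c9* and *H4c14* have the same stem with the loop TTTT, and *H4c1* has it with the loop TCTC. Another stem was found in *H4c11* and *H4c2*. Of the 43 stem-loops, 32 had the loop TTTC.

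The gene models behind the TPM mostly stop at this point. In 38 of the 43 members, the model in the deposited tables ended 4 to 6 bases after the stem-loop, at the end of the tail-less mRNA. Only *H2bc6*, *H3c4*, *H3c6*, *H3c7* and *Hist1h2bp* had models that ran further, by 7 to 1861 bases. GENCODE annotates longer ends for some members. In 20 members a GENCODE transcript ran at least 100 bases past the stem-loop, in 23 it ended within 100 bases of it, in 16 no 3′ UTR of at least 16 bases was annotated, and in 10 the annotated 3′ UTR held no match. Among the last are *H1f0*, *H2bc4* and *H2bc21*.

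Levels differed with the annotated end. Over the 8 libraries other than Cre/Cre replicate 1, the median of the members' mean TPM was 4.42 where a transcript runs past the stem-loop and 5.75 where the 3′ UTR holds no match. It was 1.18 where the transcript ends near the stem-loop and 0.533 where no 3′ UTR of at least 16 bases is annotated. At least 10 TPM was reached by 9 of 20, 4 of 10, 3 of 23 and 1 of 16 members, in that order. The group without a match mixes kinds of genes. It holds *H1f0*, *H1f7*, *H1f8* and *H1f10*, which never carried a *Hist* name, and *H1f0* and *H1f10* are among its 4. It also holds *H3c13*, whose annotated 3′ UTR has only 37 bases. The 3 in the group that ends near the stem-loop, *H2ac18*, *H2ac19* and *Hist1h2ap*, belong to near-identical pairs. These counts describe genes of 1 tissue, which are not independent replicates, and no test was made.

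**Figure D1:**
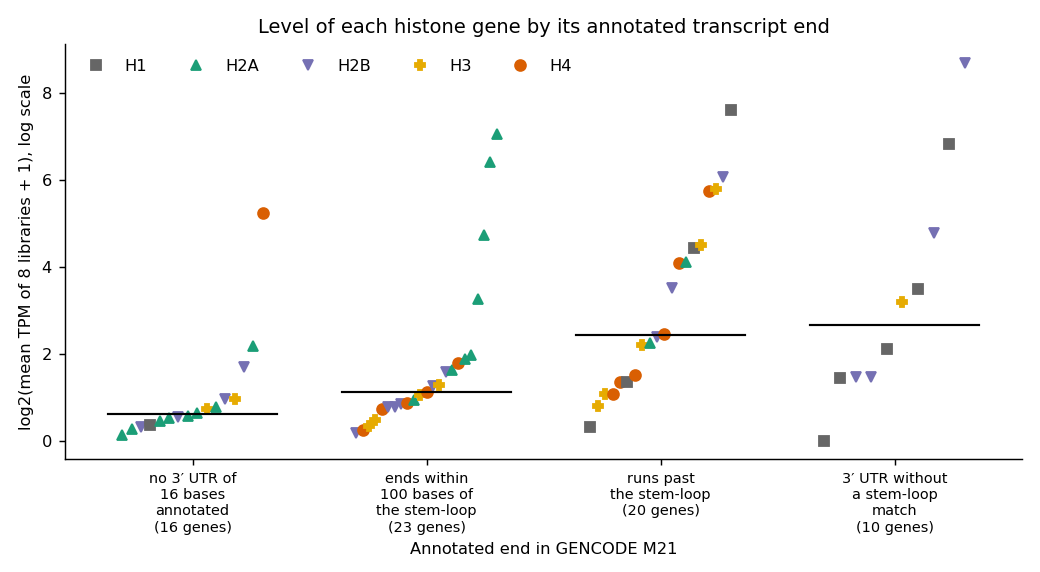
Mean level of each of the 69 histone genes over the 8 libraries other than Cre/Cre replicate 1, as log2(mean TPM + 1), grouped by how its transcript ends in GENCODE M21. Each symbol is 1 gene, its shape and colour give the class, and the line is the group's median. The medians are 0.533 and 1.18 TPM in the left groups and 4.42 and 5.75 TPM in the right groups, with wide overlap.

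H2A and H2B genes often start head to head, and the short stretch between them serves both. In the tables there were 10 such pairs, 163 to 280 bases apart. The stretches between *H2ac6* and *H2bc4* and between *H2ac8* and *H2bc8* are shown because these pairs hold the H2B genes of highest level, while their H2A partners are low. They were read from the RefSeq promoters (GRCm38.p6) on the plus strand, on which the H2B gene starts to the right. Capitals mark ATTTGCAT (the octamer bound by Oct1), CCAAT and TATAAA, searched on both strands.
H2ac6 and H2bc4 (chr13:23683960-23684198): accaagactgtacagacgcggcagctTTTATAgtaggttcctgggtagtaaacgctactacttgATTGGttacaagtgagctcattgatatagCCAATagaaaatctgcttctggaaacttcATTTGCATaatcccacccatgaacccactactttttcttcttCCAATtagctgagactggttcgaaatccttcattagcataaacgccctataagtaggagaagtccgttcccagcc
H2ac8 and H2bc8 (chr13:23571221-23571399): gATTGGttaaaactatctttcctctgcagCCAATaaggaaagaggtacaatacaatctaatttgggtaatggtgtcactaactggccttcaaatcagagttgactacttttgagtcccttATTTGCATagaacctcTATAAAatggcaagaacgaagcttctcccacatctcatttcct

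Each stretch held 1 octamer and 1 TATAAA. In the stretch of *H2ac8* and *H2bc8* the TATAAA reads toward the H2B gene, and in that of *H2ac6* and *H2bc4* it reads toward the H2A gene. Over all 27025 RefSeq promoters, which span 250 bases before to 50 after the start, the octamer was found in 1.97%, CCAAT in 41.1% and TATAAA in 15.7%. Of the 69 members, 67 had a promoter entry. The octamer was found in 8 of 16 H2B and 6 of 17 H2A promoters and in no H1, H3 or H4 promoter. The promoters of a head-to-head pair overlap, so 1 match can count for both genes, and the H2A and H2B counts are not independent. CCAAT was found in all H2A, H2B and H3 promoters, in 7 of 10 H1 promoters and in 4 of 12 H4 promoters. TATAAA was found in 9 of 12 H4 promoters and in 40.0% to 64.7% of those of the other classes. A match is a run of letters and no evidence of binding.

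The H2B gene exceeded its H2A partner in every library in 3 pairs. Over the 9 libraries, *H2bc4* had a mean of 409 TPM and *H2ac6* of 16.9 TPM, a ratio of 24.2 (25.1 without Cre/Cre replicate 1). *H2bc8* had 66.0 and *H2ac8* 4.10 TPM, a ratio of 16.1 (17.6 without it). *H2bc21* had 26.3 and *H2ac20* 3.58 TPM, a ratio of 7.35 (9.94 without it). In the other 7 pairs both genes had means under 3 TPM. The ratio of H2B to H2A was 3.10 for *H2bc15* and *H2ac15*, and 21.7 (2.26 to 0.104 TPM) without Cre/Cre replicate 1, the library that holds most of the *H2ac15* signal. In the remaining 6 it lay between 0.554 and 1.86, and between 0.485 and 1.48 without that library. *H2bc4* and *H2bc21* are also among the members without a stem-loop in the annotated 3′ UTR, while *H2bc8*, *H2ac6*, *H2ac8* and *H2ac20* have one.

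**Figure D2:**
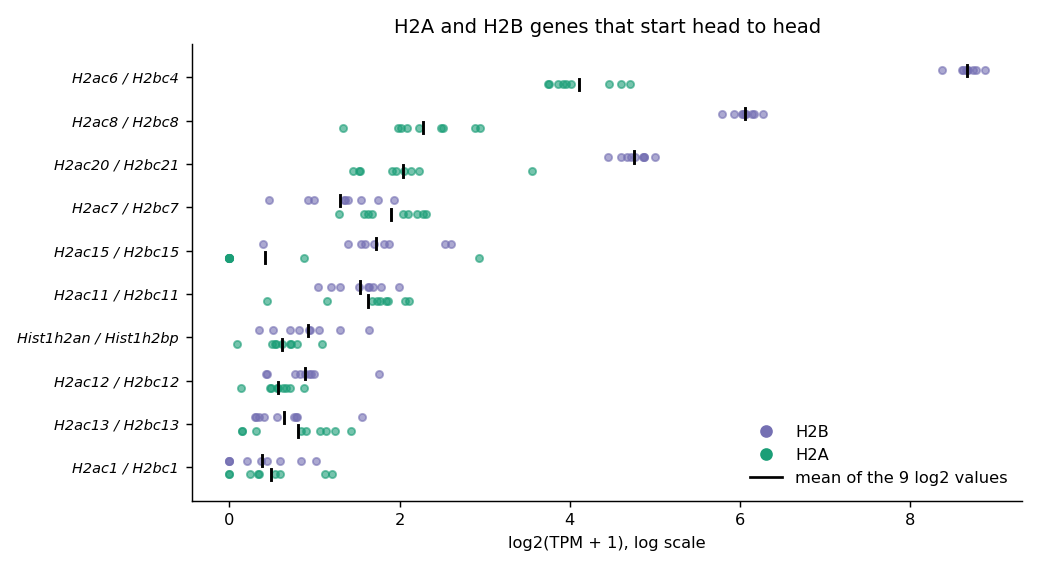
Levels of the H2A and H2B genes of the 10 head-to-head pairs, as log2(TPM + 1). Each point is 1 of the 9 libraries and the black mark is the mean of the 9 log2 values. In the 3 pairs at the top the H2B gene lies apart from its H2A partner in every library, and in the pairs below the values overlap.

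The histone mRNA in these poly(A) libraries came from few genes. The 69 members summed to 1238, 1604 and 1599 TPM in +/+, 1306, 1348 and 1359 TPM in Cre/+ and 1936, 1274 and 1297 TPM in Cre/Cre. The 5 highest members (*H2bc4*, *H1f2*, *H2ac18*, *H1f0* and *H2ac19*) held 50.4% of this sum in Cre/Cre replicate 1 and 65.2% to 69.3% in the other libraries, and the 10 highest 62.0% and 83.4% to 86.1%. A mean of at least 100 TPM was reached by 4 members and of at least 10 TPM by 18. At the other end 17 members were listed at 0 in at least 1 library, and no member was at 0 in all 9. The filter of a mean of at least 1 TPM, which uses no genotype, was passed by 50 members, and 7 of these passed it through Cre/Cre replicate 1 alone.

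**Figure D3:**
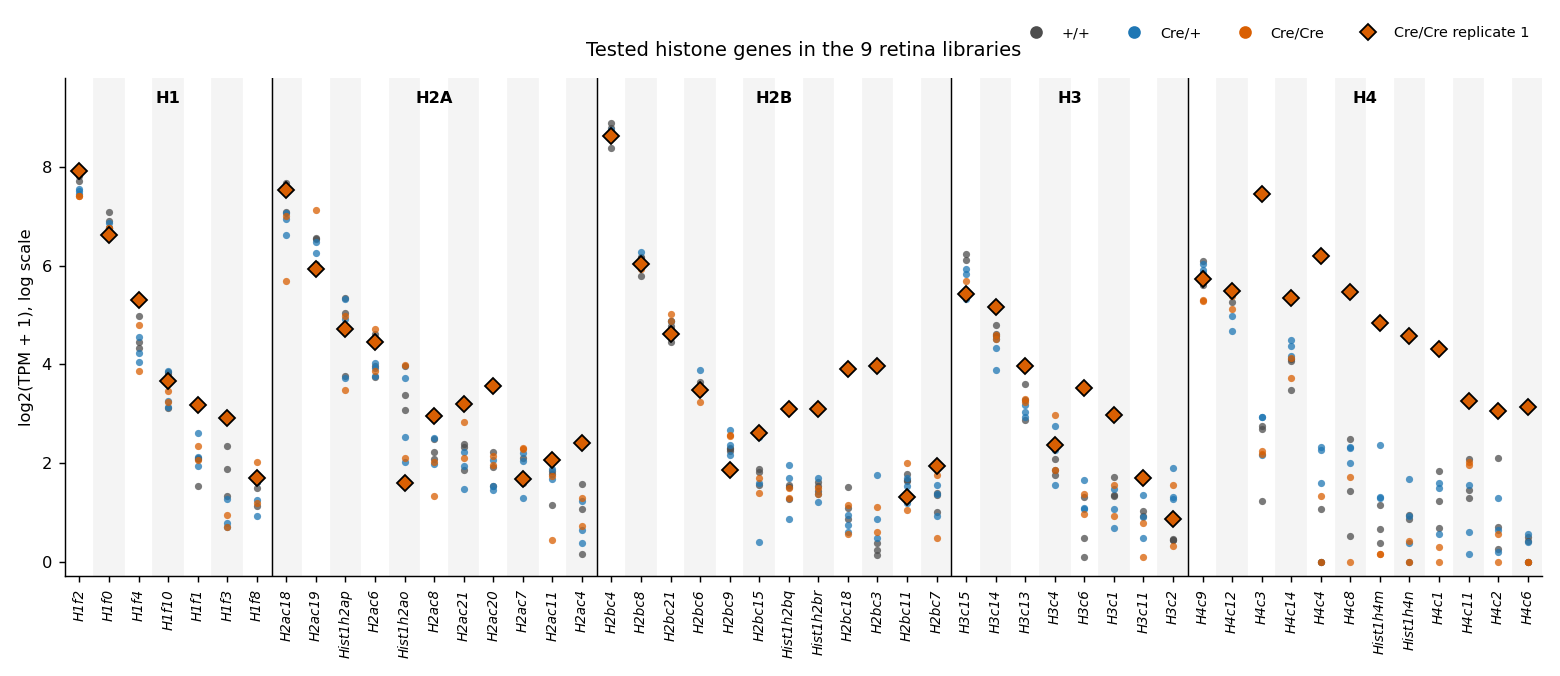
Level of each of the 50 tested histone genes in the 9 libraries, as log2(TPM + 1), by class and ordered by mean. Points are libraries coloured by genotype, and the outlined diamond is Cre/Cre replicate 1. In the H4 class the diamond lies above all other libraries in 11 of 12 genes, while it lies among the others for *H4c9* and *H2bc4* and below them for *H1f0*.

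Among the linker histones, *H1f2* (chromosome 13, 23738807 to 23739531) had the highest level. This somatic H1 had 210, 223 and 249 TPM in +/+, 173, 187 and 181 TPM in Cre/+ and 241, 169 and 169 TPM in Cre/Cre. All 3 Cre/+ libraries lay below all 3 +/+ libraries, while Cre/Cre overlapped both. The log2 fold change in Cre/+ was −0.33 ± 0.12 (SE, n = 3 per genotype), with an adjusted p of 0.404 in limma, so it did not pass. In Cre/Cre it was −0.25 ± 0.12 (adjusted p = 0.743). Without replicate 1, the remaining Cre/Cre libraries lay below all +/+ libraries, and it was −0.42 ± 0.07, with an unadjusted p of 9.86e-05 and an adjusted p of 0.236 in limma, which did not pass either. *H1f0* (chromosome 15), the linker histone gene of differentiated cells, had 108, 135 and 119 TPM in +/+, 116, 104 and 108 TPM in Cre/+ and 97.5, 108 and 107 TPM in Cre/Cre. The 3 Cre/Cre values lay just below the lowest +/+ value, with a log2 fold change of −0.21 ± 0.09 (SE) and an adjusted p of 0.664 in limma (−0.16 and 0.556 without replicate 1). *H1f0* makes a polyadenylated mRNA and is no replication-dependent gene. *H1f4*, another somatic H1, had 13.5 to 38.3 TPM, highest in Cre/Cre replicate 1. *H1f1* had 1.89 to 3.27 TPM in +/+, 2.83 to 5.07 TPM in Cre/+ and 8.02, 4.05 and 3.16 TPM in Cre/Cre, and the groups overlapped. Its log2 fold change in Cre/Cre against +/+ was 0.62, and 0.29 without replicate 1. *H1f3*, named here after its values were seen, had 2.65, 4.04 and 1.51 TPM in +/+, 0.615, 1.42 and 0.722 TPM in Cre/+ and 6.54, 0.625 and 0.929 TPM in Cre/Cre. It was below +/+ in all Cre/+ libraries and in Cre/Cre replicates 2 and 3, at a level where the log2(TPM + 1) scale understates the change. Of the germ-line linker histones, *H1f6*, *H1f7* and *H1f8* reached 0.78, 0.0838 and 3.04 TPM.

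Among the H2A genes, *H2ac18* and *H2ac19* were the highest. They are neighbours on chromosome 3 with opposite strands, and every stretch of 150 bases of the annotated *H2ac19* transcript is also found in *H2ac18*, so reads cannot be split between them with certainty. The tables list each of them at both positions. *H2ac18* ranged from 50.8 to 202 TPM and *H2ac19* from 59.8 to 138 TPM, and Cre/Cre replicate 3 held the lowest value of the former and the highest of the latter. Their sum varied less. It was 198, 283 and 294 TPM in +/+, 183, 184 and 207 TPM in Cre/+ and 243, 188 and 189 TPM in Cre/Cre, so +/+ reached above the other genotypes in 2 of its 3 libraries and overlapped them in the third. *Hist1h2ao* and *Hist1h2ap* on chromosome 13 share reads in the same way and summed to 24.3 to 48.9 TPM. *H2ac21* had 3.98, 2.64 and 4.19 TPM in +/+, 2.82, 3.65 and 1.77 TPM in Cre/+ and 8.17, 3.31 and 6.08 TPM in Cre/Cre. Its log2 fold change in Cre/Cre against Cre/+ was 0.84 ± 0.27 (SE), with an adjusted p of 0.7 in limma, and the groups overlapped. Without replicate 1 it was 0.59 ± 0.28 (adjusted p = 0.964). The H2A genes below the filter had a mean of at most 0.83 TPM, and among them *H2ac15* was at 6.63 TPM in Cre/Cre replicate 1, at 0.834 in +/+ replicate 3 and listed at 0 in the other 7 libraries.

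Among the H2B genes, *H2bc4* (chromosome 13, 23684199 to 23692480) had the highest level of all members. It had 332, 471 and 439 TPM in +/+, 429, 408 and 390 TPM in Cre/+ and 395, 405 and 411 TPM in Cre/Cre. The group means were 414, 409 and 404 TPM, and all log2 fold changes were between −0.02 and 0.00 with an SE of 0.10. *H2bc8* had 54.6 to 71.2 TPM in +/+, 64.9 to 76.5 TPM in Cre/+ and 60.3 to 66.0 TPM in Cre/Cre. *H2bc21* (chromosome 3) had 20.8 to 26.2, 24.5 to 28.4 and 23.4 to 31.2 TPM in the same order. In Cre/Cre replicate 1 these 3 genes had 395, 64.4 and 23.4 TPM, within the range of the other libraries, while some H2B genes of low level stood out there. *H2bc3*, chosen here after its values were seen, had 0.176, 0.302 and 0.102 TPM in +/+, 0.392, 0.816 and 2.38 TPM in Cre/+ and 14.6, 1.15 and 0.525 TPM in Cre/Cre. All knock-in libraries lay above all +/+ libraries, at levels mostly under 3 TPM. The mean of *H2bc3* was 0.731 TPM without Cre/Cre replicate 1, so it passed the filter through that library alone. The adjusted p in limma was 0.766 for Cre/+ and 0.809 for Cre/Cre, where the log2 fold change was 1.64, and 0.61 without replicate 1. *H2bc18*, likewise chosen afterwards, had 13.9 TPM in Cre/Cre replicate 1 and 0.482 to 1.87 TPM elsewhere. It too passed the filter through that library alone.

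Among the H3 genes, those of the *Hist2* cluster were the highest. *H3c14* and *H3c15* share reads and are each listed at 2 positions. *H3c15* had 42.3, 74.4 and 67.8 TPM in +/+, 38.9, 59.9 and 55.6 TPM in Cre/+ and 41.7, 50.4 and 44.7 TPM in Cre/Cre, with overlapping groups. *H3c14* had 22.7 to 26.9 TPM in +/+, 13.7 to 21.9 TPM in Cre/+ and 34.5, 21.9 and 23.2 TPM in Cre/Cre. Its Cre/+ libraries lay below the +/+ libraries (log2 fold change −0.42 ± 0.19 SE, adjusted p = 0.467 in limma). The sum of both genes was 65.0 to 101 TPM in +/+, 52.6 to 81.7 TPM in Cre/+ and 67.9 to 76.2 TPM in Cre/Cre, and the groups overlapped. The log2 fold change of *H3c14* in Cre/Cre against Cre/+ was 0.52, and 0.32 without replicate 1. *H3c13* had 6.36 to 11.1, 6.65 to 8.08 and 8.42 to 14.7 TPM, and its log2 fold change in the same comparison was 0.46, and 0.22 without replicate 1. *H3c2* had the smallest p of any member in Cre/+ against +/+. It had 0.359, 0.358 and 0.378 TPM in +/+, 1.40, 1.47 and 2.70 TPM in Cre/+ and 0.814, 0.237 and 1.93 TPM in Cre/Cre. The Cre/+ libraries lay above the +/+ libraries, with a log2 fold change of 1.03 ± 0.29 (SE), an unadjusted p of 0.00272 and an adjusted p of 0.357 in limma. Its mean of 1.07 TPM was just above the filter.

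The H4 genes differed in how far Cre/Cre replicate 1 departed from the other libraries. *H4c9* and *H4c12* (both on chromosome 13) were the highest over the 8 other libraries and stayed near their range in Cre/Cre replicate 1. *H4c9* had 47.4, 50.1 and 67.0 TPM in +/+, 59.2, 64.8 and 56.8 TPM in Cre/+ and 52.1, 37.9 and 38.7 TPM in Cre/Cre. All Cre/Cre values lay below all Cre/+ values, with a log2 fold change of −0.49 ± 0.14 (SE), an unadjusted p of 0.00532 and an adjusted p of 0.618 in limma. Without replicate 1 it was −0.64 ± 0.13, with an unadjusted p of 0.000431 and an adjusted p of 0.504 in limma. *H4c12* had 37.3 to 43.2 TPM in +/+, 24.4 to 42.1 TPM in Cre/+ and 43.8, 40.7 and 33.7 TPM in Cre/Cre. *H4c14* had 39.4 TPM in Cre/Cre replicate 1 and 10.2 to 21.6 TPM elsewhere. *H4c3* (23698084 to 23698458) showed the other pattern. It had 1.33, 5.41 and 5.73 TPM in +/+, 6.59, 6.62 and 3.47 TPM in Cre/+ and 174, 3.70 and 3.51 TPM in Cre/Cre. The value of 174 stood alone, and the other Cre/Cre libraries lay within the +/+ range. *H4c11* had 1.43, 3.24 and 1.75 TPM in +/+, 1.93, 0.519 and 0.118 TPM in Cre/+ and 8.57, 3.07 and 2.91 TPM in Cre/Cre. Its Cre/Cre libraries lay above the Cre/+ libraries, with a log2 fold change of 1.65 ± 0.44 (SE), an unadjusted p of 0.00491 and an adjusted p of 0.607 in limma. Without Cre/Cre replicate 1 its log2 fold change was 1.22. *H4c6*, just above the filter with a mean of 1.04 TPM, was at 7.79 TPM in that library and did not exceed 0.475 TPM in the others. Of the H4 genes named after their values were seen, *H4c4* had 72.4 TPM in that library and at most 3.97 elsewhere, *H4c8* had 43.2 and at most 4.61, and *H4c1* had 18.8 and at most 2.57.

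Cre/Cre replicate 1 was thus the highest library for many members at the same time. These counts use the genes with a mean of at least 1 TPM over the other 8 libraries, so that no gene entered through this library. It was the highest of the 9 for 22 of 43 such members (51.2%) and for 3.51% of all 15178 such genes. It exceeded the highest other library by more than 2 times in 11 of the 43 (25.6%), against 0.231% of all such genes, and 6 of the 11 encode H4. Over all 69 members this count was 20, made up of 9 of 12 H4, 6 of 17 H2B, 3 of 18 H2A, 2 of 12 H3 and 0 of 10 H1 genes. It takes in genes near 0 in the other libraries, and no share of all genes without the filter was computed. The 2-fold limit was chosen after the values were seen, and the counts carry no test. The 6 H4 genes that share the stem-loop of *H4c3* were all among the 20, as were both genes with that of *H4c11*. Of these, *H4c6*, *Hist1h4n* and *H4c2* had means under 1 TPM over the other 8 libraries. Neither gene with the stem-loop of *H4c9* was among the 20. Of the 24 genes with the stem-loop of *H1f2*, 2 were among them. So were 3 of the 6 genes with that of *H2bc3*, of which *H2bc3* and *H2bc12* had means under 1 TPM without this library. *H4c1* and *H2ac20*, each with a form of its own, were also among the 20. The rest had no stem-loop match, with 3 of 16 members without a 3′ UTR of 16 bases and 2 of 10 without a match in it. On the log2(TPM + 1) scale, the median deviation of the 43 members from the median of the other 8 libraries was 0.51 in Cre/Cre replicate 1. It was 3.35 for the 9 H4 genes among them and −0.14 for all such genes. In each of the other 8 libraries the members' median deviation was between −0.10 and 0.15.

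Other RNAs without a poly(A) tail were high in the same library. Of a list of 22 such RNAs, 12 were in the tables, and 8 of the 12 were highest in Cre/Cre replicate 1. The list summed to 101757 TPM there and to 847 to 3473 TPM in the other 8 libraries. Rn45s had 92052 TPM against at most 3359. Rpph1, the RNA of RNase P, had 5196 TPM against at most 59.9, and Rmrp, the RNA of RNase MRP, had 4436 TPM against at most 37.6. Rprl1 was listed at 0 throughout. A list of 8 blood genes summed to 464 TPM in this library, to 253 and 280 in the other Cre/Cre libraries, to 174 to 269 in +/+ and to 146 to 172 in Cre/+. On the blood list *Hbb-bt* was called in Cre/+ against +/+ (log2 fold change −3.54, adjusted p = 0.00256 in limma). In Cre/Cre against Cre/+ it was called too (4.22, adjusted p = 0.000448 in limma). *Hbb-bt* had 8.29, 9.35 and 15.5 TPM in +/+, 0 in all Cre/+ libraries and 29.8, 13.6 and 13.2 TPM in Cre/Cre. A list of 15 lens genes was highest in another library, Cre/Cre replicate 2 (1399 TPM), and had 301 TPM in Cre/Cre replicate 1. The part of these RNAs in the histone values was not tested.

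**Figure D4:**
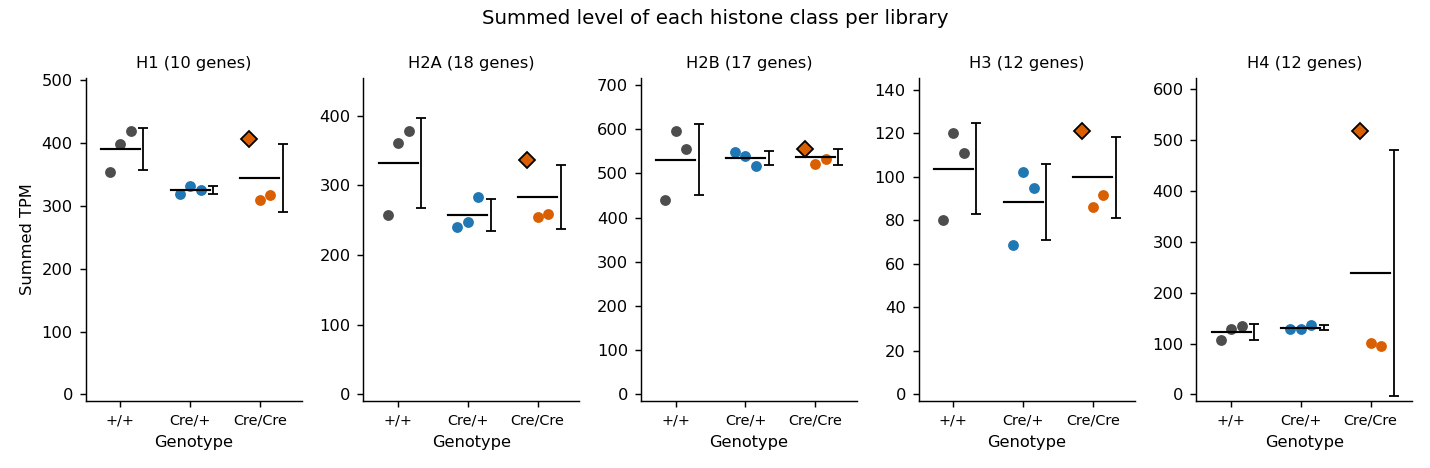
Summed TPM of each histone class per library, with 1 point per library, the mean of each genotype as a line and its SD as a bar beside it (n = 3). The diamond is Cre/Cre replicate 1. Its H4 sum of 518 TPM stands above the 95.9 to 137 TPM of the other 8 libraries, while its H2B sum of 556 TPM lies within their 441 to 596 TPM.

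The class sums show where this library differed. The H4 genes summed to 106, 128 and 135 TPM in +/+, 129, 128 and 137 TPM in Cre/+ and 518, 102 and 95.9 TPM in Cre/Cre. Without replicate 1, both Cre/Cre sums lay below all other libraries. The H1 sum was 354, 399 and 419 TPM in +/+, 319, 331 and 325 TPM in Cre/+ and 406, 309 and 317 TPM in Cre/Cre. All 3 Cre/+ libraries lay below the +/+ libraries, as did Cre/Cre replicates 2 and 3. The H2A sum was 332 ± 64.9 (SD, n = 3) TPM in +/+, 258 ± 23.5 TPM in Cre/+ and 283 ± 45.9 TPM in Cre/Cre, with overlap. The H2B sums were 531 ± 80.4, 535 ± 16.4 and 537 ± 17.0 TPM (SD, n = 3 each), and the H3 sums lay between 80.1 and 120, 68.8 and 102, and 86.3 and 121 TPM. Class sums carry no test here.

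The comparison of genotypes asks whether the knock-in allele changes gene expression in the retina, here for these genes. In limma on log2(TPM + 1), 0 of the 50 tested members passed an adjusted p of 0.05 in Cre/+ against +/+, where 0.00658% of all genes tested passed. In Cre/Cre against +/+ it was 0 of 50 against 0.00658%, and in Cre/Cre against Cre/+ 0 of 50 against 0.0132%. The latter comparisons share the Cre/Cre libraries. At an unadjusted p under 0.05, 1 member (*H3c2*, 4.90% of all genes) was higher and 1 (*H1f2*, 5.82%) lower in Cre/+ against +/+. In Cre/Cre against +/+, 1 member was higher (*H1f1*, 1.58%) and 2 were lower (*H1f0* and *H4c9*, 5.39%). In Cre/Cre against Cre/+, 4 members were higher (*H2ac21*, *H3c13*, *H3c14* and *H4c11*, 2.38%) and 1 was lower (*H4c9*, 4.20%). The percentages are those of all 15198 genes in the same direction. These counts changed when single libraries were left out. For such fits, counts over all genes are given only for Cre/Cre without its replicate 1, further below. In Cre/+ against +/+ the 2 members became 4 without +/+ replicate 1 and 9 without Cre/Cre replicate 1, which enters there only through the spread. The 3 in Cre/Cre against +/+ became 1 without +/+ replicate 3 and 6, 7 and 6 without Cre/Cre replicates 1, 2 and 3. The 5 in Cre/Cre against Cre/+ became 10 without Cre/Cre replicate 2 or 3. The smallest adjusted p of a member was 0.357, 0.664 and 0.607 in the 3 comparisons. The members' median SE was 0.38 against 0.11 for all genes, and a missed threshold does not show equal levels.

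The genotypes did not overlap for few members. In Cre/+ against +/+, 5 of the 50 lay wholly higher (*H2bc3*, *H3c2*, *H4c4*, *H4c14* and *Hist1h4m*), where 11.9% of all genes did, and 4 wholly lower (*H1f2*, *H1f3*, *H2ac18* and *H3c14*), where 10.3% did. In Cre/Cre against +/+, 1 lay higher (*H2bc3*, 2.70%) and 1 lower (*H1f0*, 8.05%). *H2bc3*, named in both comparisons, passed the filter through Cre/Cre replicate 1 alone. In Cre/Cre against Cre/+, 3 lay higher (*H3c13*, *H3c14* and *H4c11*, 4.76%) and 1 lower (*H4c9*, 7.23%). Without Cre/Cre replicate 1, 4 of the 50 members lay higher than +/+ (all genes 15.9%) and 9 lower (all genes 9.81%), among them *H1f0*, *H1f2* and *H4c9*. Against Cre/+, 4 of the 50 lay higher (all genes 13.4%) and 7 lower (all genes 8.50%), of which *H1f2* was the only one that does not encode H4.

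The direction of the members as a group in Cre/Cre rested on replicate 1. With all libraries, the median log2 fold change of the 50 was 0.21 in Cre/Cre against +/+ (all genes −0.02), with 32 of 50 above 0 (all genes 42.3%). Without Cre/Cre replicate 1 the median was −0.13 (all genes 0.02), with 18 of 50 above 0 (all genes 56.2%). Against Cre/+, the median was 0.27 with 35 of 50 above 0 (all genes 40.8%), and without replicate 1 it was −0.07 with 21 of 50 above 0 (all genes 56.0%). The H4 genes moved furthest. Against +/+ they went from a median of 0.78 with 10 of 12 above 0 to −0.35 with 3 of 12. Against Cre/+ they went from 0.39 with 11 of 12 to −0.55 with 2 of 12. Of the 50 members, 7 passed the filter through Cre/Cre replicate 1 alone (*H2ac4*, *H2bc3*, *H2bc18*, *H3c11*, *H4c2*, *H4c6* and *Hist1h4n*). Their inclusion favours higher values with that library. The count of calls was 0 with and without the library. Without it, 1 member was higher and 5 were lower at an unadjusted p under 0.05 against +/+ (all genes 896 and 544 of 15198). Against Cre/+, 1 was higher and 6 were lower (all genes 494 and 261). Replicates 2 and 3 also differ from +/+ in sex-linked genes, with *Xist* at the lowest log2 fold change of all genes (−3.49) and *Eif2s3y* at the highest (4.08), and the part of this in the histone values was not tested. In Cre/+ against +/+, where this library enters only the estimate of the spread, the median was −0.09 (all genes 0.00) and 22 of 50 were above 0 (all genes 50.4%).

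**Figure D5:**
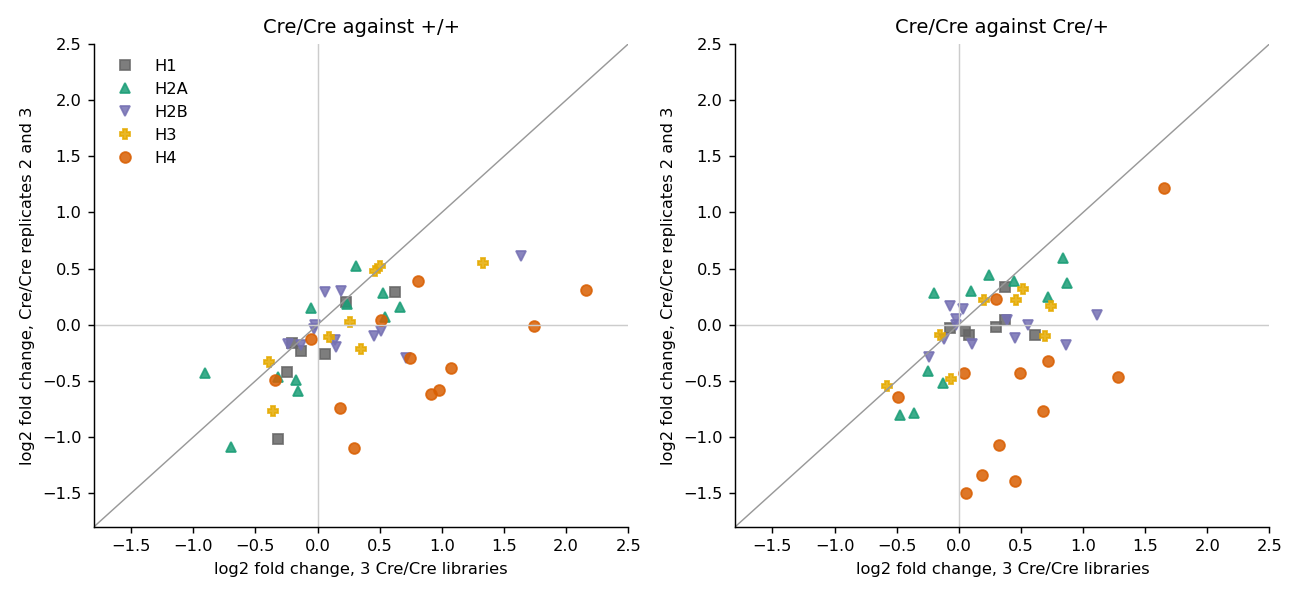
log2 fold change of the tested histone genes in Cre/Cre, against +/+ (left) and against Cre/+ (right), with all 3 Cre/Cre libraries (horizontal) and with replicates 2 and 3 alone (vertical). Each symbol is 1 gene and the diagonal marks equal values. Most H4 genes lie to the right of 0 and below it. Against +/+, 10 of 12 are above 0 on the horizontal axis and 3 of 12 on the vertical axis. Of all genes shown, 7 passed the filter through Cre/Cre replicate 1 alone, which favours higher values on the horizontal axis.

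Of 20 factors of histone mRNA transcription, 3′ end formation and decay, all were tested and 0 passed in any comparison. The list summed to 1176 TPM in Cre/Cre replicate 1 and to 1257 to 1328 TPM elsewhere. All genes with a mean of at least 1 TPM over the other 8 libraries had a median log2 deviation of −0.14 there. A lower sum in that library, for this list and those below, is thus not particular to the list. *Slbp*, which binds the stem-loop, had 26.7 to 37.1 TPM and *Npat*, the transcription factor of the histone clusters, 15.4 to 24.6 TPM. *Snrpb*, *Snrpd3* and *Sympk*, the 3 of highest level, had 228 to 263, 188 to 247 and 91.7 to 105 TPM. *Lsm10*, a core protein of the U7 snRNP, was chosen after its values were seen. It had 8.92, 11.6 and 12.3 TPM in +/+, 7.10, 6.05 and 7.22 TPM in Cre/+ and 10.5, 9.03 and 9.93 TPM in Cre/Cre. All Cre/+ libraries lay below all others, with a log2 fold change of −0.61 against +/+, an unadjusted p of 0.000486 and an adjusted p of 0.309 in limma. Of 18 histone chaperones, 17 were tested and 0 passed in any comparison, with a sum of 1178 TPM in Cre/Cre replicate 1 and of 1284 to 1394 TPM elsewhere, led by *Nap1l1*, *Nap1l4* and *Supt16*.

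Of 24 proliferation genes, 19 were tested and 0 passed, and the list summed to 298 TPM in Cre/Cre replicate 1 and to 313 to 340 TPM in the other libraries. It was led by *Pcna* (128 to 157 TPM), which also serves DNA repair, followed by *Ccna2* (33.4 to 45.8 TPM) and *Rrm1* (29.9 to 34.0 TPM). Genes of mitosis on the list had lower levels. *Mki67* had 0 to 1.02 TPM, *Cdk1* 0 to 0.346, *Top2a* 0 to 2.37 and *Ccnb2* 1.19 to 3.87. Cre/Cre replicate 1 held the lowest value of *Mki67*, *Top2a* and *Ccnb2*, but not of every gene listed. There *Ccne1* had 6.29 TPM (3.72 to 6.44 over the 9 libraries) and *Mcm4* 15.3 TPM (12.5 to 15.4). Of the 24 genes, 1 was highest in that library. A list of 12 variant histone genes that are not members summed to 2561 to 3220 TPM, lowest in Cre/Cre replicate 1 and with 0 calls. Its best known genes have introns and poly(A) tails. It was led by *H3f3b* (1160 to 1414 TPM), *H3f3a* (776 to 1058 TPM) and *H2az1* (237 to 294 TPM). Others on this list were low, such as *Cenpa* with 3.33 to 6.95 TPM.

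The choice of members changes the sums more than the calls. The 9 genes under an older name summed to 32.3, 55.8 and 45.8 TPM in +/+, 32.7, 43.1 and 51.8 TPM in Cre/+ and 95.4, 39.8 and 29.1 TPM in Cre/Cre. Of these 9, 6 were tested and 0 passed in any comparison, and their median log2 fold changes were 0.00 in Cre/+ against +/+, 0.48 in Cre/Cre against +/+ and 0.25 in Cre/Cre against Cre/+. *Hist1h2bp*, with a mean of 0.956 TPM, and *H2bc12*, with 0.92 TPM, were the members just below the filter. The non-members *H2aw*, *H2bu2* and *H4f16* had 367 to 484, 204 to 314 and 1.33 to 5.66 TPM, and together 578 to 757 TPM. *H2aw* and *H4f16* were highest in Cre/Cre replicate 1. Copies are so alike that 50 of the 69 members share at least 1 stretch of 150 bases with another member, and 20 share more than 50% of such stretches, so that the TPM of 1 gene within such a group is less certain than the class sum.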

How the data were processed

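Strand-specific, poly(A)-selected RNA of 9 whole-retina samples was sequenced by the authors as paired reads of 150 bases. The authors used Trimmomatic for trimming, HISAT2 for alignment (mm10), StringTie for gene levels and DESeq2 for their own comparisons. Versions, the annotation and StringTie's strand setting are not given in the sources used here. The deposited tables hold coverage, FPKM and TPM per gene as the authors made them, with FPKM and TPM divided by gene length. They hold no read counts, so limma 3.58.1 in R 4.3.3 was used (log2(TPM + 1), robust prior with trend, 1 model of all 9 libraries with genotype as its term and 6 residual degrees of freedom) in place of a count test. The pseudocount of 1 makes fold changes of low genes too small. TPM of rows with the same name were summed, and genes with a mean of at least 1 TPM were tested (15198 of 25239). The Benjamini-Hochberg adjustment ran over all genes tested. Depth was taken from the ratio of coverage to FPKM. Counting error per gene is unknown, and the spread between 3 libraries sets the precision.

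The members, gene lists and tests were chosen with earlier results of these data known. The members follow 2 name patterns, which widens the rule as given. Members named are the 3 of highest mean per class, the 3 tested with the smallest p per comparison, any called and the 2 on either side of the filter. Of other lists, the rule took the 3 of highest mean and any called, and *Rbpms*. The retina, lens and blood lists are given by their sums instead, with only the called *Hbb-bt* named. All other genes given with values were picked with their values in view. Stem-loops were read from GENCODE M21 transcripts and promoters from RefSeq (GRCm38.p6). Only the main fit of Cre/Cre against +/+ was tried on simulated data. These data gave all libraries of a gene the same spread, so they hold no library like Cre/Cre replicate 1. Alternatives are listed at the end.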

Additional observations from a re-analysis of the deposited data

How the results depend on the processing

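Of the 50 members, 0 were called in each of the 3 comparisons, under each of the 8 alternatives to the fit (a pseudocount of 0.1, no filter, a filter on the median, the replicate block, only the genotypes compared, median-ratio scaling, FPKM in place of TPM, and no robust prior) and without any 1 of the 9 libraries (0 to 0). The median log2 fold change of the members lay between −0.11 and −0.03 in Cre/+ against +/+ under the 8 alternatives, between 0.14 and 0.24 in Cre/Cre against +/+, and between 0.09 and 0.30 in Cre/Cre against Cre/+. Leaving out each library gave −0.14 to 0.05, −0.13 to 0.32 and −0.07 to 0.47. The value of 0.05 came without +/+ replicate 3, and those of −0.13 and −0.07 without Cre/Cre replicate 1. With the replicate number as a block the medians were −0.09, 0.21 and 0.27, and the counts at an unadjusted p under 0.05 were 4, 3 and 7 in place of 2, 3 and 5. Same-numbered libraries of different genotypes correlated between −0.116 and 0.128 in their deviations, and differently numbered ones between −0.194 and 0.261. Same-numbered libraries were thus no more alike, but with 3 libraries per genotype this cannot tell whether they share a litter or batch. Leaving out each library gave 2 to 9, 1 to 7 and 4 to 10 members at an unadjusted p under 0.05, with no share over all genes beside them. Only the genotypes compared gave 10 members at an unadjusted p under 0.05 in Cre/+ in place of 2. For this fit and the replicate block no share over all genes is given either. Whether such counts are particular to the members was not tested. Member sets chosen after seeing the data (without the 4 genes that never had a *Hist* name, with *H2aw*, *H2bu2* and *H4f16*, and only the older names) gave 0 calls, and with only the older names the median in Cre/+ was 0.00 in place of −0.09 and that in Cre/Cre against +/+ 0.48 in place of 0.21. For the 22 members named by rule, apart from *Hist1h2bp* and *H2bc12* below the filter, 1014 values were recomputed. Of these values 39 had another sign, none of them called, and 0 changed side of the threshold. Limits are the 3 libraries per genotype, the lack of counts, models that end at the stem-loop and reads shared between copies.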
